A study of Mus musculus with 12 samples.

Results

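Box C/D small nucleolar RNA genes and small Cajal body RNA genes were described in C2C12 cells, a mouse myoblast line that fuses into multinucleate myotubes. Members were all genes of the deposited count table whose symbol begins with Snord or Scarna, which gave 108 of 55385 genes, 99 Snord and 9 Scarna. One symbol, Snord80, stands for 2 identifiers. Total RNA was sequenced from 3 libraries of cells differentiated into myotubes for 7 days and from 3 libraries of undifferentiated control myoblasts. Both groups are the same line, with no genotype change, and no label says whether replicates were separate cultures. P-values therefore measure the spread between these libraries, which may be technical. The series also holds stem cell small RNA libraries, but their table lists box H/ACA families named SNORA and no Snord or Scarna gene.

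Box C/D RNAs carry short conserved C and D boxes, bind the methyltransferase fibrillarin with Nop56, Nop58 and Snu13, and pair with a target RNA to place a methyl group on a ribose. Most of them guide methylation of ribosomal RNA, while a few, such as U3 and U8, are needed for cleavage of the ribosomal RNA precursor instead. Small Cajal body RNAs are box C/D, box H/ACA or composite guides that modify spliceosomal small nuclear RNAs in the Cajal body. In mammals most of these genes lie in introns of host genes and the guide is released from the spliced intron, so host genes are given beside them. Target assignments below are those known for the human counterparts.

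Gene counts ranged from 18335785 to 31119511 per myotube library and from 22200097 to 54083215 per myoblast library. The members took up between 0.0159% and 0.0234% of counts in myotube libraries and between 0.0106% and 0.0246% in myoblast libraries. Of 7 muscle genes fixed as myotube markers all 7 rose, and 4 of 4 proliferation markers fell (edgeR, adjusted p under 0.05). Myotube replicate 1 stood apart, with a summed proliferation marker level of 745 CPM (counts relative to the TMM-scaled library size), against 202 and 176 in myotube replicates 2 and 3 and 1793 to 1884 in myoblasts. Of 4 pluripotency markers, Pou5f1 and Zfp42 were at 0 in all 6 libraries, Nanog had 0.0652 to 0.232 CPM in myotubes and 0.0938 to 0.17 CPM in myoblasts, and Sox2 was at 0 in myotubes and had 0.0668 to 0.281 CPM in myoblasts. Markers of fibroblasts and adipocytes (Pdgfra, Thy1, Pparg, Adipoq, Fabp4) summed to 34.8 to 91.6 CPM in myotube libraries and 25.3 to 37.4 in myoblast libraries, with Thy1 and Adipoq at 0. Of the 2 tested, Pdgfra rose (46.9 ± 29.6 CPM in myotubes and 10.7 ± 4.90 CPM in myoblasts, edgeR adjusted p = 0.0133) and Pparg fell (8.40 ± 2.05 CPM in myotubes and 22.2 ± 1.76 CPM in myoblasts, adjusted p = 0.00252; SD, n = 3 each). Macrophage markers (Ptprc, Adgre1, Cd68) summed to 1.14 to 2.03 CPM in myotubes and 1.92 to 2.61 CPM in myoblasts, nearly all of it Cd68. Their part in the results was not tested.

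Detection was taken as a raw count of 10 or more in 3 libraries. By this rule 28 of the 108 genes (25.9%) were detected, 24 of the 99 Snord genes and 4 of the 9 Scarna genes. A further 26 genes had counts below the rule, and 54, all of them Snord genes, had 0 counts in every library. The number of members with 10 or more counts was 18, 26 and 17 in myotube replicates 1, 2 and 3, against 42, 28 and 25 in myoblast replicates 1, 2 and 3, so the deepest library had the most. With every library scaled to the smallest total, 14 Snord and 4 Scarna genes met the rule. Box H/ACA genes of the same table, named Snora, had 15 of 42 detected and 22 at 0.

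**Figure D1:**
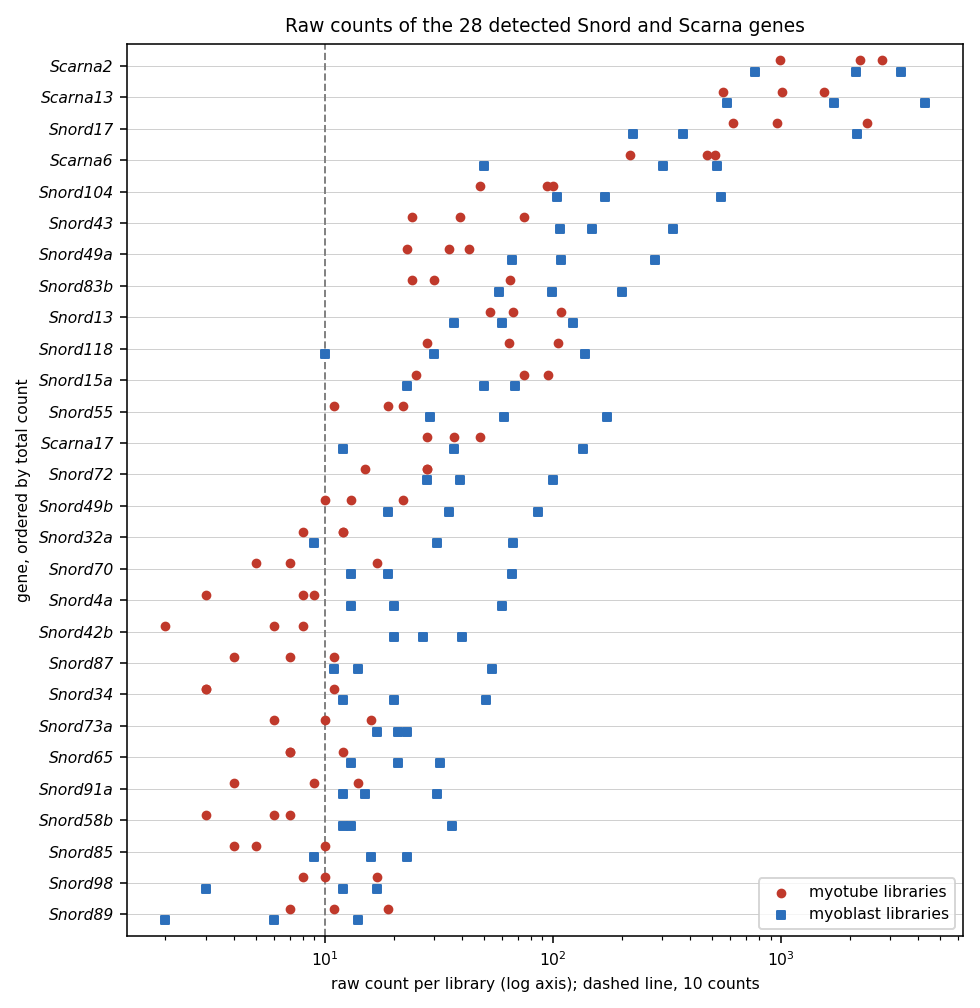
Raw counts per library (log axis) of the 28 detected genes, ordered by total count, with myotube libraries as red circles above myoblast libraries as blue squares and a dashed line at 10 counts. Scarna2, Scarna13, Snord17 and Scarna6 lie apart at the top, and many of the lower genes have most of their myotube counts at or under the line.

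Counts were held by very few genes. Scarna2 had 32.5% of all member counts, Scarna13 had 25.6%, Snord17 had 17.8% and Scarna6 had 5.52%, together 81.4%. Those genes are 414, 275, 238 and 265 nt long in the deposited table, against a median of 85.5 nt over all members. On a scale of CPM per kilobase of gene length, Scarna13 (161), Scarna2 (154) and Snord17 (145) led, followed by Snord104 (66.1), Scarna6 (41.6), Snord49a (34.1) and Snord43 (30.7), while the lowest detected gene was Snord89 with 3.03. The spread between libraries of the first 3 was larger than the gaps between them, so their order is not resolved. The RefSeq span of Scarna2 (chr3:108554342-108554402 of GRCm38.p6) is far shorter than its deposited length, so its level per kilobase and its place depend on which length is used. These were total RNA libraries and not small RNA libraries, and how well they recover RNAs of each length was not tested.

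Just inside the detection rule were Snord58b, Snord85 and Snord89, with 77, 67 and 59 counts in all libraries together and 3 libraries at 10 or more. Snord4a and Snord42b also had 3 such libraries. For Snord4a, Snord42b and Snord58b all of them were myoblasts. Just outside were Snord123, Snord53, Snord93 and Snord7, with 2 libraries at 10 or more and totals of 66, 58, 55 and 42. Snord123 had 34, 5 and 2 counts in myotubes and 19, 4 and 2 in myoblasts, so its total came mostly from replicate 1 of each group. The next by total count were Snord82 (51), Snord37 (47), Snord110 (44), Scarna9 (38) and Snord8 (37). The U6 guides Snord7, Snord8 and Snord67 were among the genes with counts but not detected. So were Scarna8, Scarna9, Scarna10, Scarna3a and Scarna3b.

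The 54 genes at 0 included whole groups. All 17 Snord116 copies and Snord64 and Snord107, which lie in the imprinted Snhg14 locus known for its part in Prader-Willi syndrome, had 0 counts, 19 genes in all. Their host RNA Snhg14 had 7.21 ± 1.91 CPM in myotubes and 1.28 ± 0.217 CPM in myoblasts (SD, n = 3 each), and it rose with a log2 fold change of 2.48 ± 0.35 (SE, edgeR adjusted p = 0.00132). All Gas5 members of the table (Snord47, Snord78 and both Snord80 identifiers) and the Snhg1 member Snord22, an RNA of 18S maturation, were also at 0. The 4 tabulated U14 genes Snord14a, Snord14c, Snord14d and Snord14e, whose RNA both methylates and helps to process 18S rRNA, were at 0 as well. A count of 0 allows up to 3 counts, which is 0.0964 to 0.164 CPM in the myotube libraries and 0.0555 to 0.135 CPM in the myoblast libraries, counting error only. Whether reads that match several copies, as of Snord116 or U14, were counted was not tested.

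Most genes at 0 had an expressed host. Outside the Snhg14 locus, 34 members at 0 had a host in the table, with host levels of 9.42 to 1307 CPM and a median of 106 CPM. Hosts of 22 detected members had 1.23 to 587 CPM with a median of 173 CPM. Hspa8, which carries 3 of the U14 genes, averaged 876 CPM in myotubes and 1737 CPM in myoblasts. Some hosts held both detected members and members at exactly 0, among them Rpl13a (Snord32a and Snord34 against Snord33) and Rps3 (Snord15a against Snord15b). Why such neighbours differ was not tested. How reads in overlapping annotations were assigned is not stated in the labels or headers, so a 0 is a statement about the table and not about the cell.

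**Figure D2:**
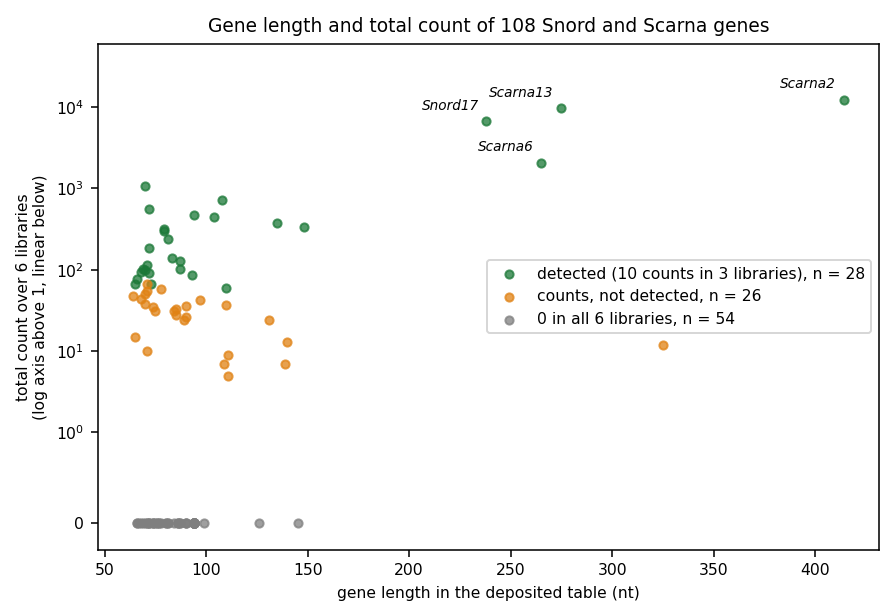
Total count over the 6 libraries (log axis above 1, linear below) against gene length in nucleotides for all 108 genes, coloured green for 28 detected, orange for 26 with counts below the rule and grey for 54 at 0. The 4 genes with the most counts are 238 to 414 nt long, while genes at 0 run from 66 to 145 nt and share that range with detected genes.

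Of the 28 detected genes 26 passed the filter of the test on low counts, 22 Snord and 4 Scarna. The remaining 2 were not tested. Their groups did not overlap, as for 28.7% (myotubes above) and 27.2% (myotubes below) of all genes tested. Snord58b met the detection rule through myoblast libraries only, so its lower level in myotubes is no result about it. Snord58b had 0.271, 0.196 and 0.174 CPM in myotubes and 0.602, 0.317 and 0.563 CPM in myoblasts, and Snord89 had 0.271, 0.619 and 0.638 CPM in myotubes and 0.234, 0.146 and 0.0938 CPM in myoblasts. Myotubes were compared with myoblasts by edgeR's quasi-likelihood test over 15932 genes. In that comparison 40.1% of all genes were called at an adjusted p under 0.05, 20.5% higher and 19.6% lower in myotubes. Among the 26 tested members 1 was called higher (3.85%), Scarna6, and 4 were called lower (15.4%), Snord42b, Snord55, Snord43 and Snord49a, so neither share was above that of all genes. A total of 10 of the 26 had an unadjusted edgeR p under 0.05, beside 7989 of all 15932 genes tested. The median log2 fold change of the tested members was -0.63, against 0.06 over all genes tested. The tested members include Snord42b and Snord85, which passed the filter through myoblast libraries only, and Snord98, which passed through myotube libraries only. The contrast of medians is therefore no result about the members. As these are bulk cultures, fewer cells of a type and less RNA per cell cannot be told apart.

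None of these 5 calls stood in every run that left out 1 library. The counts ran from 0 to 4 higher and from 0 to 2 lower, beside 2430 to 3599 higher and 2127 to 3517 lower over all genes. With the replicate number as a block, 3 members were higher (Scarna6, Scarna2 and Snord17) and 3 lower (Snord42b, Snord43 and Snord55). DESeq2 called 4 higher and 5 lower, adding Scarna2, Snord17 and Snord15a as higher and Snord104 as lower. Both fits tested 26 members and 15932 genes in all. Over all genes the block called 3561 higher and 3322 lower, and DESeq2 called 3605 higher and 3445 lower. Scaling by library totals called 2678 higher and 3678 lower. Scaling by library totals alone moved the median of all genes to -0.07 and left no member called higher, with 1 still higher at an unadjusted p under 0.05, and the same 4 lower.

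**Figure D3:**
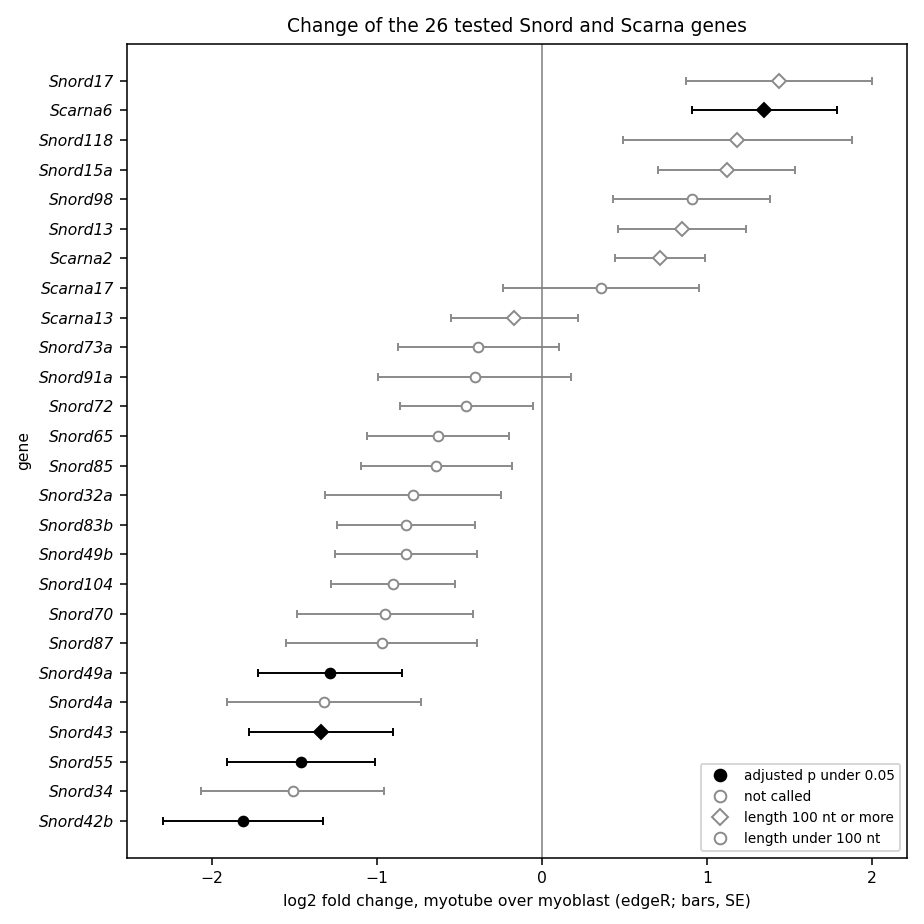
The log2 fold change of myotubes over myoblasts, with its SE, for the 26 tested genes in order of size; filled symbols were called at an adjusted p under 0.05 and diamonds are genes of 100 nt or more. The filled symbols are Scarna6 on the right and Snord49a, Snord43, Snord55 and Snord42b on the left.

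Scarna6, a composite guide that modifies U5 small nuclear RNA in human cells, had 18.2, 16.8 and 12.6 CPM in myotubes, against 8.77, 7.43 and 2.34 CPM in myoblasts. All 3 myotube libraries lay above all 3 myoblast libraries, as they did for 28.7% of all genes tested, and myoblast replicate 3 was the lowest. Its log2 fold change was 1.35 ± 0.44 (SE, edgeR adjusted p = 0.0402). That call was lost without myotube replicate 1, 2 or 3 (adjusted p = 0.0701, 0.0946 and 0.0558), without myoblast replicate 2 (0.0814) and with library totals (0.0737). Scarna6 lies in the autophagy gene Atg16l1 at chr1:87784571-87784818 of GRCm38.p6, and that host had a log2 fold change of 0.41 ± 0.19 (adjusted p = 0.12).

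Scarna2, a box C/D guide of U2 small nuclear RNA transcribed from its own promoter, had 107, 72.5 and 57.5 CPM in myotubes and 56.3, 52.1 and 36.1 CPM in myoblasts. The groups did not overlap, but myotube replicate 3 lay close to myoblast replicate 1. It was not called (log2 fold change 0.72 ± 0.27, edgeR adjusted p = 0.0669), while it was with the replicate block (0.0167), with DESeq2 (0.0483), without a filter (0.0326) and without myotube replicate 3 (0.0441).

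Scarna13, the box H/ACA RNA U93, had 60.0, 32.8 and 32.4 CPM in myotubes, against 71.7, 41.5 and 27.1 CPM in myoblasts. The groups overlapped and replicate 1 was the highest in both. Its log2 fold change was -0.17 ± 0.38 (edgeR adjusted p = 0.745), and it was 0.27 without myoblast replicate 1. Its host Snhg10 had far lower levels, 0.806 CPM in myotubes and 1.65 CPM in myoblasts on average. Scarna17, a box C/D guide of U4, had 1.86, 0.913 and 2.14 CPM in myotubes and 2.26, 0.901 and 0.563 CPM in myoblasts, with overlapping groups (0.36 ± 0.59, edgeR adjusted p = 0.648).

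**Figure D4:**
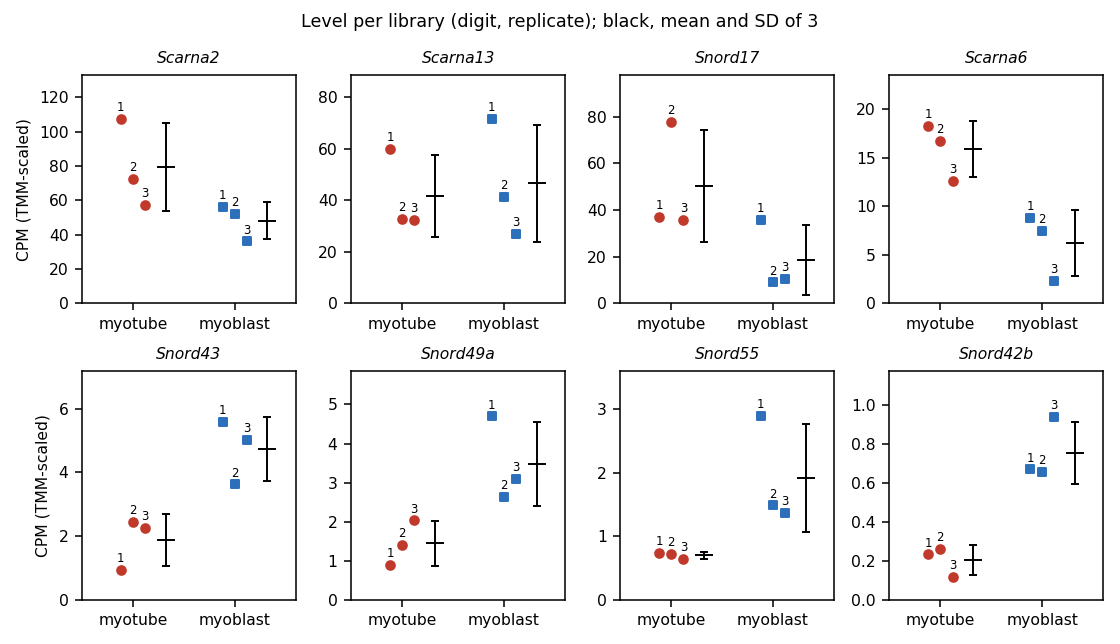
TMM-scaled CPM per library for 8 genes, myotube libraries in red on the left and myoblast libraries in blue on the right of each panel, with digits for the replicate and the mean and SD of 3 libraries in black. The upper row holds the 4 most abundant genes, of which only Scarna2 and Scarna6 show no overlap. The lower row holds the 4 genes called lower, with every myotube library below every myoblast library. Snord42b met the detection rule through myoblast libraries only.

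Among long Snord genes, Snord17 had 37.2, 77.9 and 35.8 CPM in myotubes, against 35.9, 9.08 and 10.6 CPM in myoblasts. Myoblast replicate 1 was level with 2 of the myotube libraries, and the others were well below. Its log2 fold change of 1.44 ± 0.56 was not called (edgeR adjusted p = 0.0746), but it was 2.35 and called without that library (0.00751), and it was called with the replicate block (1.64, adjusted p = 0.0491), DESeq2 (0.0191) and limma-voom (0.0491). Its host Snx5, a sorting nexin gene, fell over the same libraries (-0.92 ± 0.18, adjusted p = 0.00499). The log2 ratio of Snord17 to Snx5 was -1.77, -0.81 and -1.78 in myotubes and -2.56, -4.70 and -4.75 in myoblasts, so every myotube ratio was above every myoblast ratio; this ratio was not tested.

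Snord15a, a guide of 28S rRNA in the ribosomal protein gene Rps3, had 2.90, 3.10 and 1.45 CPM in myotubes and 1.14, 1.22 and 1.08 CPM in myoblasts. The groups did not overlap, and the change of 1.12 ± 0.41 was not called (edgeR adjusted p = 0.0613; DESeq2 0.0242). Rps3 itself had a log2 fold change of -0.64 ± 0.25 (adjusted p = 0.0699). Snord15a and Snord15b are similar in sequence, and with Snord15b at 0 the split between them is uncertain.

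The 2 tested genes of the list of RNAs that act on ribosomal RNA precursors other than as methylation guides had higher means in myotubes without being called. Snord118, the U8 RNA of 5.8S and 28S maturation, had 1.08, 3.42 and 3.71 CPM in myotubes, against 2.31, 0.731 and 0.469 CPM in myoblasts. Myotube replicate 1 fell below myoblast replicate 1, so the groups overlapped (1.19 ± 0.69, edgeR adjusted p = 0.201), and without myoblast replicate 1 it was called (2.14, adjusted p = 0.0395). Snord13, the U13 RNA that guides acetylation of 18S rRNA in human cells, had 2.05, 3.55 and 3.88 CPM in myotubes and 2.06, 1.46 and 1.73 CPM in myoblasts (0.85 ± 0.39, edgeR adjusted p = 0.114), with a single overlapping pair of replicate 1 libraries. U3 genes of this table carry other symbols (Rnu3) and are not members.

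The called falls were all in Snord genes, which were 22 of the 26 tested members. Of these falls 2 were in genes listed as 18S guides, Snord42b among them, and 2 in genes listed as 28S guides. Snord42b, a guide of 18S rRNA in Rpl23a at chr11:78183059-78183113, had 6, 8 and 2 counts in myotubes, against 40, 27 and 20 in myoblasts. On the CPM scale this was 0.203 ± 0.0767 in myotubes and 0.755 ± 0.159 in myoblasts (SD, n = 3 each), with no overlap and a log2 fold change of -1.81 ± 0.49 (edgeR adjusted p = 0.0196). Its call was lost without myotube replicate 2 or 3 (0.0515 and 0.0866) or myoblast replicate 3 (0.0704). Snord42b met the detection rule and passed the filter of the test through myoblast libraries only. Its lower level in myotubes, with the call and the missing overlap, is therefore no result about it. Snord4a in the same host had 3, 9 and 8 counts in myotubes and 60, 20 and 13 counts in myoblasts, also without overlap in CPM, and was not called (-1.32 ± 0.59, edgeR adjusted p = 0.106). Snord4a also met the detection rule through myoblast libraries only. The host Rpl23a had a log2 fold change of -0.61 ± 0.24 (adjusted p = 0.0792). Snord42a, also inside it, was below detection with 15 counts in all.

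Snord55, a guide of 28S rRNA, had 0.734, 0.717 and 0.638 CPM in myotubes, against 2.89, 1.49 and 1.36 CPM in myoblasts. The myotube libraries were tightly grouped below the others, and myoblast replicate 1 was the highest. It fell by 1.46 ± 0.45 on the log2 scale (SE, edgeR adjusted p = 0.0325). The call was lost without myotube replicate 1, 2 or 3 (0.053, 0.0887 and 0.11) or myoblast replicate 1 (0.0606).

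Snord43, a guide of 18S rRNA in Rpl3 at chr15:80082859-80082906, had 0.928, 2.44 and 2.26 CPM in myotubes and 5.60, 3.63 and 5.02 CPM in myoblasts. Myotube replicate 1 was the lowest of the 6 and the groups did not overlap. The log2 fold change was -1.34 ± 0.44 (edgeR adjusted p = 0.0406), and the call was lost without myotube replicate 2 or 3 (0.0527 and 0.0806) or myoblast replicate 1, 2 or 3 (0.083, 0.0585 and 0.1). Its host Rpl3 had a log2 fold change of -0.62 ± 0.27 (adjusted p = 0.0994). Snord83b, an RNA with no assigned target on the lists used here and in the same host, had 0.928, 2.12 and 1.74 CPM in myotubes and 3.34, 2.41 and 2.72 CPM in myoblasts, also without overlap, and was not called (-0.82 ± 0.42, edgeR adjusted p = 0.146).

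Snord49a, Snord49b and Snord65 share the non-coding host 2410006H16Rik and guide 28S (Snord49a and Snord49b) or 18S rRNA (Snord65). Snord49a had 0.889, 1.40 and 2.03 CPM in myotubes, against 4.70, 2.63 and 3.09 CPM in myoblasts. It was called lower (-1.28 ± 0.44, edgeR adjusted p = 0.0473), but not with the replicate block (0.0616) nor in any of the 6 runs without 1 library (0.0557 to 0.112, lowest without myotube replicate 3, highest without myotube replicate 2). Snord49b averaged 0.600 ± 0.109 CPM in myotubes and 1.06 ± 0.327 CPM in myoblasts, and Snord65 averaged 0.356 ± 0.0742 and 0.552 ± 0.0513 CPM in myotubes and myoblasts (SD, n = 3 each). The groups did not overlap for either gene, and neither was called (-0.82 ± 0.43 and -0.63 ± 0.43, adjusted p = 0.157 and 0.27). The host had a log2 fold change of -0.33 ± 0.30 (adjusted p = 0.396).

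Snord104, a guide of 28S rRNA inside the non-coding gene Gm36220, had 3.63, 3.26 and 2.78 CPM in myotubes and 9.07, 4.14 and 4.88 CPM in myoblasts. All 3 myotube libraries were below the myoblast libraries, and the change was not called (-0.90 ± 0.38, edgeR adjusted p = 0.0877; DESeq2 0.0414). Snord72 in Rpl37 had 0.955 ± 0.113 CPM in myotubes and 1.31 ± 0.361 CPM in myoblasts, and Snord32a in Rpl13a had 0.465 ± 0.204 and 0.765 ± 0.349 CPM in myotubes and myoblasts (SD, n = 3 each). Both overlapped and neither was called (-0.46 ± 0.40 and -0.78 ± 0.53, edgeR adjusted p = 0.386 and 0.271).

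The remaining tested genes lay between 0.116 and 1.10 CPM in single libraries. Snord34 (-1.51 ± 0.56, edgeR adjusted p = 0.0604), Snord87 (-0.97), Snord70 (-0.95), Snord85 (-0.64), Snord91a (-0.41) and Snord73a (-0.38) had negative log2 fold changes and were not called. Snord98 in the gene Ccar1 was the only short Snord gene with a positive value (0.91 ± 0.48, edgeR adjusted p = 0.159), at 0.387, 0.554 and 0.464 CPM in myotubes and 0.284, 0.292 and 0.141 CPM in myoblasts. Over all 26 tested genes 8 values were positive and 18 negative. In 4 genes (15.4%) every myotube library was above every myoblast library, against 28.7% of all genes tested, and in 11 (42.3%) every one was below, against 27.2%. These 11 include Snord42b and Snord4a, which met the detection rule through myoblast libraries only. The filter of the test passed Snord42b and Snord85 of the 11 through myoblast libraries only. It passed Snord98 of the 4 through myotube libraries only. The differences from all genes are therefore no result about these genes.

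By role, 6 of 22 listed 18S guides were tested and 2 were called lower, none higher, with a median log2 fold change of -1.13. Of 32 listed 28S guides 8 were tested and 2 were called lower, none higher, with a median of -0.94. These tested genes had negative values apart from Snord15a. The lists rest on human assignments and may be incomplete, and with Snord42b and Snord4a among the 18S guides these counts and medians support no direction. Of the 9 scaRNA genes 4 were tested, 1 was called higher and none lower. Over all genes tested 20.5% were called higher and 19.6% lower.

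Values also differed by gene length, a split at 100 nt that was chosen after the values were seen. Of 8 tested genes of 100 nt or more, 6 had positive log2 fold changes, with a median of 0.98 and a range of -1.34 to 1.44. Of 18 shorter genes 2 had positive values, with a median of -0.82 and a range of -1.81 to 0.91. The shorter genes include Snord42b, Snord85 and Snord98, each of which passed the filter of the test through a single group only. The longer genes include Scarna2, Scarna13 and Scarna6, so length and class are mixed in this split. It used deposited lengths, and Snord43, among the longer genes, has a shorter RefSeq span. The split is therefore no result about length. Other non-coding RNAs outside the members were given beside these values. Of 5 nuclear long RNAs 4 were tested and 1 rose, and of 8 other small RNAs 7 were tested and 2 rose, none falling in either list, beside 20.5% higher over all genes tested. Summed levels of the nuclear list were 31369 to 38897 CPM in myotube libraries and 3142 to 8323 CPM in myoblast libraries, with Meg3 at 0, and those of the small RNA list were 10047 to 14719 and 2930 to 7384 CPM in myotubes and myoblasts. The nuclear RNA Malat1 had 33512 ± 3384 CPM in myotubes and 4205 ± 2657 CPM in myoblasts (SD, n = 3 each), and the 7SK RNA Rn7sk had 11489 ± 2366 CPM in myotubes and 4786 ± 2158 CPM in myoblasts. Both rose (edgeR adjusted p = 0.00251 and 0.0355). The share of nuclear or small RNA in each library and its part in these changes was not tested.

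**Figure D5:**
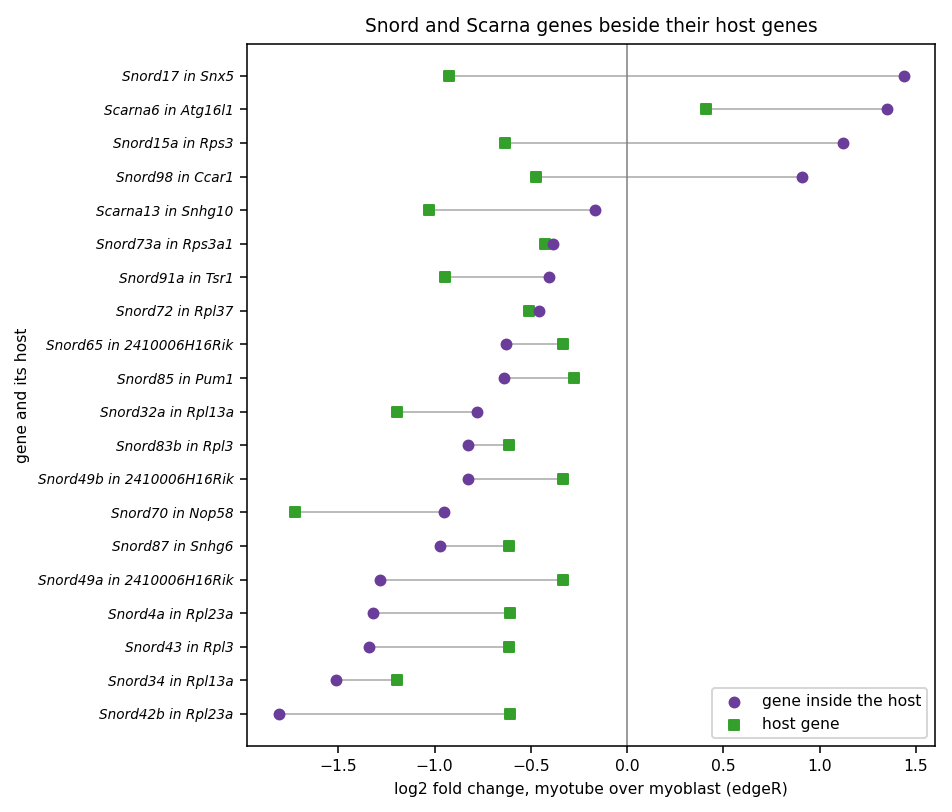
The log2 fold change of myotubes over myoblasts for tested genes (purple circles) and for their tested host genes (green squares), joined by a line for each pair; 1 pair is not shown. Snord17, Snord15a and Snord98 lie on the positive side while their hosts lie on the negative side; Scarna6 is the only pair with both on the positive side.

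Listed host genes as a group were lower in myotubes. Of 60 genes listed as hosts of box C/D or Cajal body RNAs 59 were tested, and 32 fell (54.2%, against 19.6% of all genes) while 2 rose (3.39%, against 20.5%), with a median log2 fold change of -0.76. The list includes genes to which no member was assigned here, such as Eif4a1, Hspa9 and Phb2, so these shares are not those of the members' hosts. Nop56 and Nop58 are also counted among the box C/D particle genes below. The 2 listed hosts that rose were Snhg14 and the translation initiation factor gene Eif4a2 (0.94 ± 0.19, edgeR adjusted p = 0.00599), whose member Snord2 was at 0. Hosts placed by RefSeq span alone are not in these counts. Among them Snhg18, Dcaf5 and Rc3h2 were called higher, and Haus6, 2700038G22Rik and 1110038B12Rik were called lower. Of 21 tested members with a tested host, 17 had negative values with a negative host value, 3 had positive values with a negative host value, and 1 was positive with a positive host. None was negative with a positive host, but Scarna6 was the only pair with a positive host, so the hosts nearly fixed this outcome. The 21 pairs came from 16 hosts, and member and host values had a Pearson correlation of 0.27. Snord98, among the 3 positive genes with a negative host, passed the filter of the test through myotube libraries only. Host and member values share libraries, and reads from the host's intron can be counted for the gene inside it, so these are not independent readings.

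Host start sites are shown for the hosts with a pyrimidine run at the start and for the 3 hosts whose value was negative while that of the gene inside was positive. In RefSeq sequence of GRCm38.p6, 11 hosts of tested members had a promoter entry. Windows run 5′ to 3′ on the host's strand, from 40 bases before to 20 bases from the annotated start, for the host of Snord49a, Snord49b and Snord65 (2410006H16Rik, chr11:62602837-62602896, plus strand), the host of Snord104 (Gm36220, chr11:106500875-106500934, plus strand), the host of Snord15a (Rps3, chr7:99483690-99483749, minus strand), the host of Snord17 (Snx5, chr2:144270553-144270612, minus strand) and the host of Snord98 (Ccar1, chr10:62792349-62792408, minus strand). Capitals mark an uninterrupted run of at least 5 C or T letters that covers the start and may begin before it. Both marked runs begin before the annotated start. The mark therefore differs from a terminal oligopyrimidine start, which lies in the RNA itself and was not tested.
2410006H16Rik: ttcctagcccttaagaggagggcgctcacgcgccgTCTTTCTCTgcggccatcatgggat
Gm36220: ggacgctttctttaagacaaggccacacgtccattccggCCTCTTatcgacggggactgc
Rps3: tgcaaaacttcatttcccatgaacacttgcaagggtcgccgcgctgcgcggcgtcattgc
Snx5: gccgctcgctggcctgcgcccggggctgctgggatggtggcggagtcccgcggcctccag
Ccar1: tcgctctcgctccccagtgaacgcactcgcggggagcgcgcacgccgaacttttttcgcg
A run of this kind was found in 2 of the 11 hosts (18.2%), 2410006H16Rik and Gm36220, against 11.8% of 27025 genes with a promoter entry. The run was read on the host's strand only, and a missing run says only that these letters do not cover the annotated start.

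Summed over the detected genes, Scarna RNAs had 187, 123 and 105 CPM in myotubes and 139, 102 and 66.1 CPM in myoblasts, and Snord RNAs had 55.1, 105 and 60.6 CPM in myotubes and 78.6, 34.3 and 40.1 CPM in myoblasts. The groups overlapped for both sums, although within each replicate number the Scarna sum was higher in the myotube library (3 of 3); no test was made of a sum. Without Snord17 the Snord sum averaged 23.2 ± 4.75 CPM in myotubes and 32.5 ± 9.15 CPM in myoblasts (SD, n = 3 each), so this gene decided which group had the higher mean.

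Genes for most of the proteins that bind or assemble box C/D RNAs fell in myotubes. Of 13 genes of box C/D particles and their assembly all were tested and 11 fell, beside 19.6% of all genes tested, with a median log2 fold change of -1.31. Nop56 had 66.7 ± 26.1 CPM in myotubes and 303 ± 72.8 CPM in myoblasts, and Nop58 had 78.6 ± 32.4 CPM in myotubes and 260 ± 85.2 CPM in myoblasts (SD, n = 3 each). Snu13 fell by 1.28 ± 0.19 (SE, adjusted p = 0.00145). Of 20 listed Cajal body genes 18 were tested, 10 fell and none rose, beside 19.6% lower and 20.5% higher over all genes tested, with a median of -0.71. On the log2 scale Strap of the SMN complex changed by -0.82 ± 0.27 (edgeR adjusted p = 0.0418). Nolc1, which encodes a nucleolar and coiled body phosphoprotein, changed by -1.87 ± 0.39 (adjusted p = 0.00746), and Gemin5 of the SMN complex by -1.25 ± 0.24 (adjusted p = 0.00506). Coil, which encodes the Cajal body marker coilin, had 8.94 ± 1.27 CPM in myotubes and 14.6 ± 0.523 CPM in myoblasts (SD, n = 3 each; log2 fold change -0.70 ± 0.20, edgeR adjusted p = 0.0266), and Wrap53, whose protein carries scaRNAs to the Cajal body, fell by 1.19 ± 0.21 (0.00319). Coil and Wrap53 were named after their values were seen.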

How the data were processed

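Per the labels' protocols, the kit behind the 6 C2C12 libraries was TruSeq Stranded Total RNA Gold. The raw counts per gene, with gene lengths, were deposited by the authors, and a second table holds the same counts as a signal scaled by the authors with 1 factor per library, which was not tested. The submitters' processing notes name STAR 2.5.1b, featureCounts 1.5.1, DESeq2 1.18.1 and mm10 without giving their roles; neither labels nor headers state the strand setting or the treatment of overlapping features. Tests ran on raw counts in edgeR 4.0.16 (R 4.3.3), with TMM scaling, filterByExpr, the robust quasi-likelihood F-test and Benjamini-Hochberg adjustment over all tested genes, and were tested on simulated data. SE is the absolute log2 fold change over the square root of F. CPM are TMM-scaled, and ratios to a host add 0.05 CPM. DESeq2 1.42.0 and limma 3.58.1 served as alternatives.

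Same-numbered libraries deviated from their group means together (correlations 0.232, 0.189 and 0.17), which meets the criterion for a pairing used here (every pair over 0.1), although a differently numbered pair reached 0.358. The reported tests are unpaired, and the fit with the replicate number as a block is given where it changed a call. Every pair of libraries differed by far more than sampling noise (chi-square per degree of freedom at least 103). Members and lists were chosen with earlier results of these data known. Named were every called member, all tested Scarna genes, the 12 most abundant tested Snord genes and tested RNAs listed for ribosomal RNA precursors, with their hosts; other names were chosen after their values were seen. Hosts came from a list checked against RefSeq spans, which placed 63 of 66 members inside the listed host. Elsewhere the RefSeq span was used. Listed members without a RefSeq span kept the listed host unchecked, among them Snord107, Snord50a, Snord50b, Snord78 and both Snord80 identifiers. Coordinates are RefSeq's (GRCm38.p6) and can be shorter than the deposited length. Member sequences are not shown. The host of 1 called member is not reported here.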

Additional observations from a re-analysis of the deposited data

How the results depend on the processing

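Detection of Snord genes (24) was 14 with libraries scaled to the smallest total, 11 when all 6 libraries had to reach 10 counts and 45 at 1 count in any library; for Scarna genes (4) it was 9 at 1 count in any library. It was 19 to 24 and 4 when single libraries were left out. Members called higher (1) numbered 4 with DESeq2, 0 with library totals, 2 without a filter, 2 with limma-voom, 3 with the replicate block and 0 to 4 without single libraries; members called lower (4) numbered 0 to 2 without single libraries, and Snord89 (higher) and Snord93 (lower) entered in some of those runs. Of 204 alternative values for the 17 named members 1 changed sign, Scarna13, which was 0.27 without myoblast replicate 1 (-0.55 to 0.27 over single libraries left out); 24 lost and 11 gained a call. The summed levels became 23.2 CPM for Snord genes in myotubes without Snord17, and 59.2 and 54.2 CPM for Scarna genes in myotubes and myoblasts without Scarna2. Beside the calls named with their genes, the replicate block changed no other call of a named member. Over all genes 3605 were called higher with DESeq2, 2678 with library totals and 3271 with limma-voom. This was 3561 with the replicate block and 3799 without a filter, of 30300 genes then tested. Without single libraries the counts over all genes ran from 2430 to 3599 higher and from 2127 to 3517 lower. Those of host genes ran from 2 to 2 higher and 23 to 43 lower. Under scaling by library totals, all tested genes had a median of -0.07 in place of 0.06, and 42.1% in place of 51.1% of their calls were higher. Low counts limit most Snord genes, which lay near 1 CPM or below.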
